A study of Caenorhabditis elegans with 2 samples.

Results

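The DPL-1 peaks described here lay inside introns of autosomal protein-coding genes of the nematode Caenorhabditis elegans, away from annotated promoters. They were chosen by position from the 3726 peaks that passed the authors' irreproducible discovery rate (IDR) threshold, a cut on how well peak ranks repeat. Not every peak of this list was found in each replicate: 87.1% had a summit within 100 bp in the list of replicate 2. A peak was kept when its summit was on an autosome, inside a protein-coding gene, in no annotated exon of any gene type, and outside every window from 500 bp upstream to 200 bp downstream of a protein-coding transcript start. Summits with a gene for a small RNA (tRNA, rRNA, snRNA or snoRNA) within 200 bp were left out. This gave 339 peaks, 9.10% of the list (exact 95% binomial interval 8.19 to 10.1%), beside 2015 autosomal promoter peaks and 643 autosomal intergenic peaks chosen with the same treatment of small RNA genes.

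The series held 1 group of 2 biological replicates of chromatin immunoprecipitation and sequencing (ChIP-seq) with an antibody labelled dpl-1, from sonicated chromatin of whole first-stage (L1) larvae of mixed sex. Every larva was of strain YL448, which carries the unc-119(ed3) mutation and the transgene vrIs83, in which the ges-1 promoter drives DPL-1 with GFP and FLAG tags and the dpl-1 3'UTR, beside a wild-type unc-119 copy. The ges-1 promoter is active in the intestine. The labels do not say which part of the protein the antibody sees, so native DPL-1 of all tissues and the intestinal fusion protein cannot be told apart. No condition was compared with another, so no test between groups was possible, peaks are not replicates, and all intervals cover counting of peaks alone.

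DPL-1 belongs to the DP family. DP proteins pair with E2F proteins, bind DNA at sites with runs of T before a core of C and G, and belong to the DREAM complex, which holds cell cycle genes in check and can also bind the CHR element. Most described targets of E2F and DREAM are promoters. Introns of worm genes are mostly short, and the long ones, often near a start, are where many intronic regulatory elements of the worm lie.

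The strings that lay beside the summits are shown first, for the 6 strongest intronic peaks on chromosomes II, III, IV and V that held an E2F string (TTTCCCGC, TTTCGCGC, TTTGCCGC or TTTGGCGC on either strand) within 50 bp of the summit. Each is 30 bases of the plus strand of the RefSeq sequence of WBcel235 (ce11), 5′ to 3′, with E2F strings and CHR-like strings (TTTGAA or TTCGAA, either strand) in capitals.
F53F1.3, chrV:13409274-13409303: aactcattcacGCGCGAAATTCAAAttaga
ari-1.4, chrIV:15526688-15526717: aagctgaaaacGCGCGAAATTCAAAttaaa
Y75B8A.25, chrIII:12278976-12279005: gtgaattttttTTTGGCGCgcaTTTGAAaa
smg-3, chrIV:6369695-6369724: acaaaactcatTTTGGCGCGAAATTCAAAt
kin-4, chrIV:11433960-11433989: tattgtctgtgTTTCCCGCattgaaaacta
skn-1, chrIV:5656188-5656217: cgtttggcctgGCGCCAAATTTGAAtttca
All but the kin-4 sequence had a CHR-like string beside the E2F string. The windows of F53F1.3, ari-1.4 and smg-3 also shared a run of 22 bases, so these 3 are not independent cases. The 30 bases centred on the 3 strongest summits on these chromosomes are shown because each held ACACGGC, here in capitals, a string noticed in these sequences after their values were seen.
Y65A5A.2, chrIV:16415264-16415293: cgagaggagtACACGGCagcgtggcctaga
F53F1.3, chrV:13409253-13409282: gtACACGGCcgagaatcacaaaactcattc
ari-1.4, chrIV:15526657-15526686: ccgagaggactACACGGCcgagattccgac
The E-box CACGTG and the repeat GAGAGAGA were the commonest of the strings searched from a list of known factors apart from the CHR-like string. The 3 strongest intronic peaks on these chromosomes with CACGTG and the 2 strongest with GAGAGAGA, chosen after the values were seen, carry the string in capitals.
epg-9, chrIV:2602086-2602115: caagtgttcaatCACGTGaaaactcatcac
Y43F8B.2, chrV:19529364-19529393: cggtgcgcaatgCACGTGaatcgccgccgc
Y111B2A.12, chrIII:12617140-12617169: attattcattatCACGTGatgatgatcgtc
ell-1, chrIV:4401128-4401157: cTCTCTCTCTCTCTCTCTCTCTCTCTCttt
nova-1, chrV:18079353-18079382: gttttctctcgTCTCTCTCagctctcaatg

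The strongest intronic peak lay in Y65A5A.2 (WBGene00013419), at IV:16415121-16415459, with its summit 439 bp downstream of a transcript start of the gene. Its signal was 1194 in replicate 1 (rank 107 of 30000), 325 in replicate 2 (rank 76) and 1509 in the IDR list (rank 97 of 3726). The peak in slc-36.4, of a family of amino acid transporters, followed with 931 in replicate 1, 251 in replicate 2 and 1184 in the IDR list. F53F1.3 had 924 in replicate 1, 238 in replicate 2 and 1166 in the IDR list. These 3 intronic peaks were the only ones with a signal over 1000 in the IDR list, and both replicates placed them near the top of their own lists.

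The next peaks lay in genes of varied function. The peak in ari-1.4, of the ariadne ubiquitin ligase family, had a signal of 688 in replicate 1 and 161 in replicate 2. That in set-18, a SET domain gene, had 599 in replicate 1 and 140 in replicate 2. That in epg-9, an autophagy gene of the ATG101 kind, had 517 in replicate 1 and 75.6 in replicate 2. They were followed by fath-1, a fatty acid hydroxylase gene (IDR signal 549), Y75B8A.25 (514), M117.3 (499) and smg-3, of nonsense-mediated mRNA decay (472). The peaks of rank 11 to 20 had IDR signals from 434 down to 233 and lay in lron-13, Y69A2AR.1, the phosphatase gene ptpn-22, the N-terminal acetyltransferase subunit gene natc-2, Y111B2A.12, Y56A3A.7, the nuclear receptor gene nhr-19, the PHD finger gene phf-15, gei-4 and the kinase gene kin-4. All 20 had a match in both replicates.

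**Figure D1:**
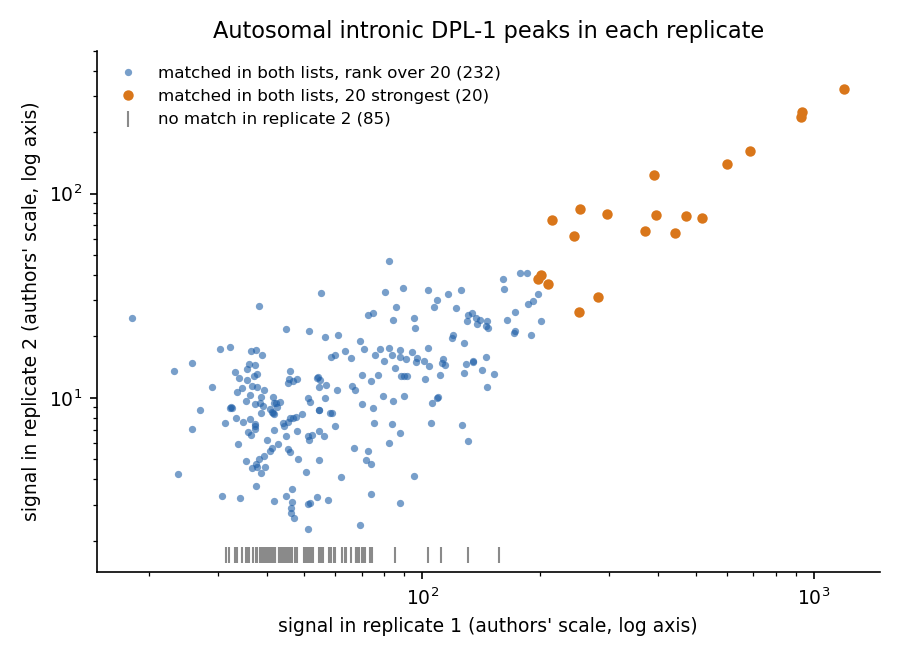
Signal of each autosomal intronic DPL-1 peak in replicate 2 (vertical, log axis) against replicate 1 (horizontal, log axis), on the authors' scale; orange marks the 20 strongest in the IDR list and grey ticks the 85 peaks with a replicate 1 match and none in replicate 2. The 3 strongest peaks stand apart at the upper right, and the unmatched peaks lie mostly at low replicate 1 signal.

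Replicate 2 held fewer of the intronic peaks than replicate 1. A peak was matched when a replicate's list of 30000 peaks, which has no threshold, held a summit within 100 bp. Of the intronic peaks, 337 (99.4%) were matched in replicate 1 and 254 (74.9%, 70.0 to 79.5%) in replicate 2. Over all IDR peaks these shares were 99.5% and 87.1%, while 91.6% of promoter peaks and 84.0% of intergenic peaks were matched in replicate 2. Both replicates went into the IDR list, so a match in either is not an independent check of its peaks. The peaks without a replicate 1 match were those of pgph-2 (6.26 in replicate 2) and 1 of 5 in zfp-1 (13.03 in replicate 2). Among the 85 without a replicate 2 match, the strongest were in pqn-41 (IDR signal 185) and larp-1 (142). Signals were higher in replicate 1, with a median ratio to replicate 2 of 5.73 over the 252 intronic peaks matched in both, against 5.16 for promoter peaks and 5.94 for intergenic peaks. The part of these higher signals in the larger share matched in replicate 1 was not tested.

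The median intronic peak was weaker than the median promoter peak. Their signal in the IDR list had a median of 61.9, with quartiles of 48.0 and 111 and a range from 39.5 to 1509. The median was 150 for promoter peaks, 69.5 for intergenic peaks and 94.0 for all IDR peaks. Of the intronic peaks, 104 (30.7%, 25.8 to 35.9%) were among the 1863 strongest of the IDR list, against 64.7% of promoter peaks and 35.5% of intergenic peaks. When the list was cut by signal into 5 near-equal parts, the strongest held 15 intronic peaks and the weakest 124. Matching in replicate 2 went with signal: from the strongest to the weakest part it was 100%, 96.3%, 83.6%, 69.6% and 61.3% for intronic peaks, beside 100%, 98.0%, 91.7%, 78.5% and 67.2% for all IDR peaks. Within each of these parts the interval of the intronic share held the share of all IDR peaks except in the third, where the interval ended at 91.5%. Of the 6179 autosomal intronic peaks in the pooled list, 5.49% (4.93 to 6.08%) were in the IDR list, against 30.2% of promoter peaks, 11.3% of intergenic peaks and 12.4% of all pooled peaks.

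**Figure D2:**
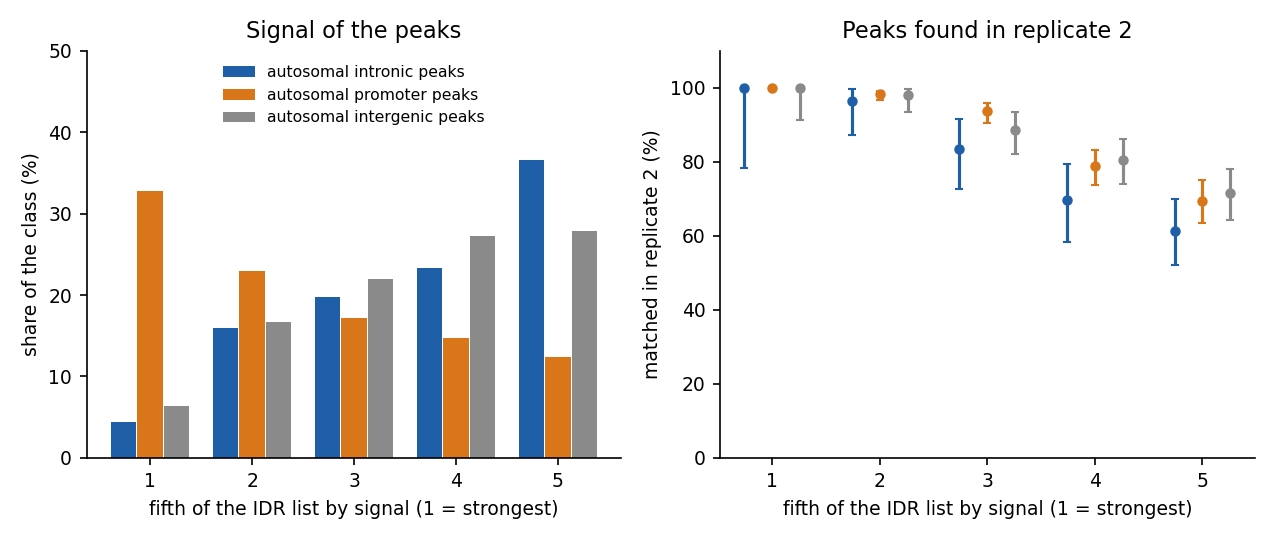
Left, share of the intronic, promoter and intergenic autosomal peaks (%) in each of 5 near-equal parts of the IDR list, 1 being the strongest. Right, share of those peaks matched in replicate 2 (%) with exact 95% binomial intervals. Intronic peaks crowd the weakest part (36.6% of them), promoter peaks the strongest (32.8%), and matching falls with signal in all 3 classes.

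Long introns held the intronic peaks at higher density than short ones. The intron around a summit, taken as the shortest annotated one, had a median length of 3090 bp over 338 peaks. It was 70 bp over 90275 distinct autosomal introns and 85 bp over the 78635 with bases open to the rule. The first median counts summits and the others count introns, so they are unlike measures, and densities by length compare like with like. Per Mb of intron open to the rule (eligible intron, 24.3 Mb in all), there were 4.56 peaks in introns under 500 bp, 7.55 from 500 to 999 bp, 9.59 from 1000 to 1999 bp, 27.1 from 2000 to 4999 bp, 38.3 from 5000 to 9999 bp and 46.1 in introns of 10000 bp or more. The longest host introns were the 86515 bp intron of cox-6B and the 20948 bp intron of lin-1, an ETS transcription factor gene. Among the 15 peaks of the strongest part of the list the order was different: 6 lay in introns under 500 bp, those with the lowest density, and 0 in introns of 10000 bp or more. The remaining member, in F28F8.7, was inside the gene but in no annotated intron of a protein-coding transcript.

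First introns held 174 of the intronic peaks (51.3%, 45.9 to 56.8%), against 28.7% of the eligible intron length, or 24.9 peaks per Mb in first introns and 9.54 per Mb elsewhere. The difference was not the same at every length. It was not seen in introns under 1000 bp (4.31 in first and 4.61 in other introns under 500 bp, and 7.81 in first and 7.47 in other introns from 500 to 999 bp). The densities were 16.5 in first and 7.01 in other introns from 1000 to 1999 bp, 43.2 in first and 16.6 in other introns from 2000 to 4999 bp, 39.5 in first and 36.7 in other introns from 5000 to 9999 bp, and 59.8 in first and 29.5 in other introns of 10000 bp or more. The share depends on the transcripts used: an intron counted as first when it was so in any transcript, and with the longest transcript of each gene alone the share was 35.7% (120 of 336). The share of eligible length in first introns of the longest transcripts was not counted, so the 28.7% is not its counterpart. Last introns held 28 peaks (8.26%) against 17.9% of the length. Within introns, 153 summits lay in the middle of 3 equal segments, 98 in the one nearest the 5′ splice site and 87 in the one nearest the 3′ splice site. The rule takes bases near transcript starts out of introns, and the eligible length of each segment was not counted. These counts therefore cannot say whether summits were more frequent in one segment than its length would give.

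**Figure D3:**
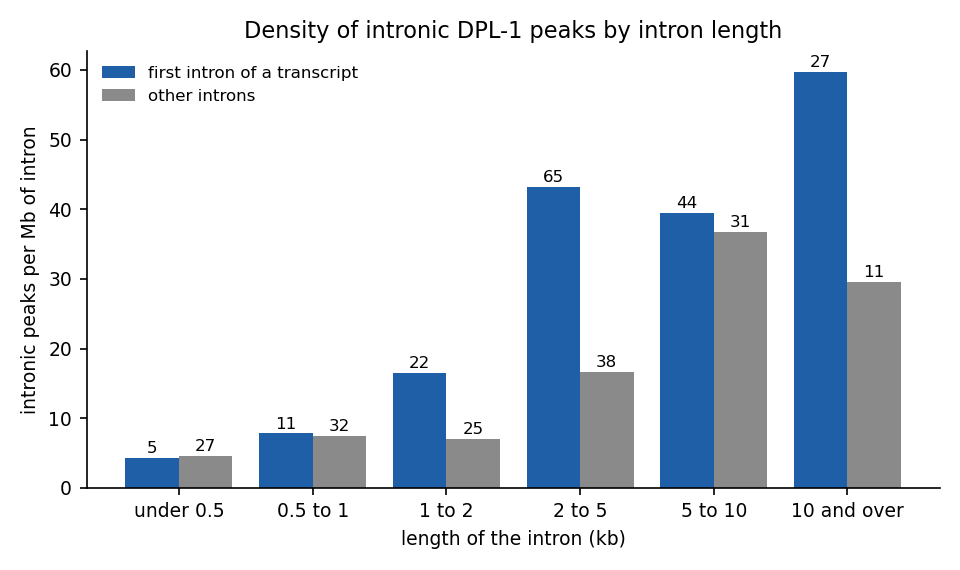
Autosomal intronic DPL-1 peaks per Mb of eligible intron (vertical) by length of the intron in kb (horizontal), in introns that are first in any transcript (blue) and in other introns (grey); the number over each bar is the count of peaks. Density is higher in long introns of both kinds, and first introns stand above others from 1 to 5 kb and from 10 kb.

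Summits lay a median of 1354 bp from the nearest annotated protein-coding start (234 to 20223 bp), and 117 (34.5%) were within 1000 bp. The nearest start was the host gene's own for 298 peaks (87.9%). A later start of the host lay downstream of 214 summits (63.1%), and within 2000 bp for 113 of them. These values were not counted over eligible intron, so whether summits differ from it in them was not tested. Per Mb of eligible intron, chromosome III held 17.5 peaks, chromosome IV 17.2, chromosome II 15.9, chromosome I 11.4 and chromosome V 8.85. The central segment of autosomes cut into 3 held 18.2 peaks per Mb, against 12.4 in the outer segments.

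The 339 peaks lay in 265 host genes, 1.54% of the 17242 autosomal protein-coding genes. Of these hosts, 216 held 1 peak, 35 held 2 and 14 held 3 or more. Peaks of a host often shared an intron: 96 peaks lay in 38 introns with at least 2. The most in 1 gene was 5, in each of 3 genes. In zfp-1 (WBGene00006975), which codes for the worm AF10 protein, the IDR signals were 164, 159, 125, 121 and 58.5, in 2 introns. In fkh-7 (WBGene00001439), a forkhead gene, they were 141, 48.2, 42.3, 41.1 and 41.1, all in a 16465 bp first intron. In ifbp-1 (WBGene00010867) they were 64.9, 44.4, 44.0, 42.7 and 39.8, all in a 7248 bp first intron. The signals of the zfp-1 peaks were mostly over the median of the intronic peaks, while 4 of 5 in fkh-7 and in ifbp-1 were below it.

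A further 7 genes held 4 peaks. In Y111B2A.12 they had IDR signals of 311, 155, 148 and 81.3, and in pqn-41, which codes for a glutamine-rich protein of linker cell death, 185, 160, 143 and 105. In hlh-30, the worm TFEB gene of autophagy and lysosome control, they were 218, 153, 53.4 and 48.7, the second and the third each with an E2F string. The others were nhr-19 (highest 279), the AMPK subunit gene aakg-1 (129), daf-5, the Ski-like cofactor of dauer formation (121), and the cGMP-dependent kinase gene pkg-2 (84.3). The elongation factor gene ell-1 (211), spsb-1 (146), T28B11.1 (133) and lag-1, the transcription factor of Notch signalling (85.4), held 3. In daf-5 the 2 stronger peaks were matched in replicate 2 (17.6 and 7.45) and the 2 weaker were not.

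**Figure D4:**
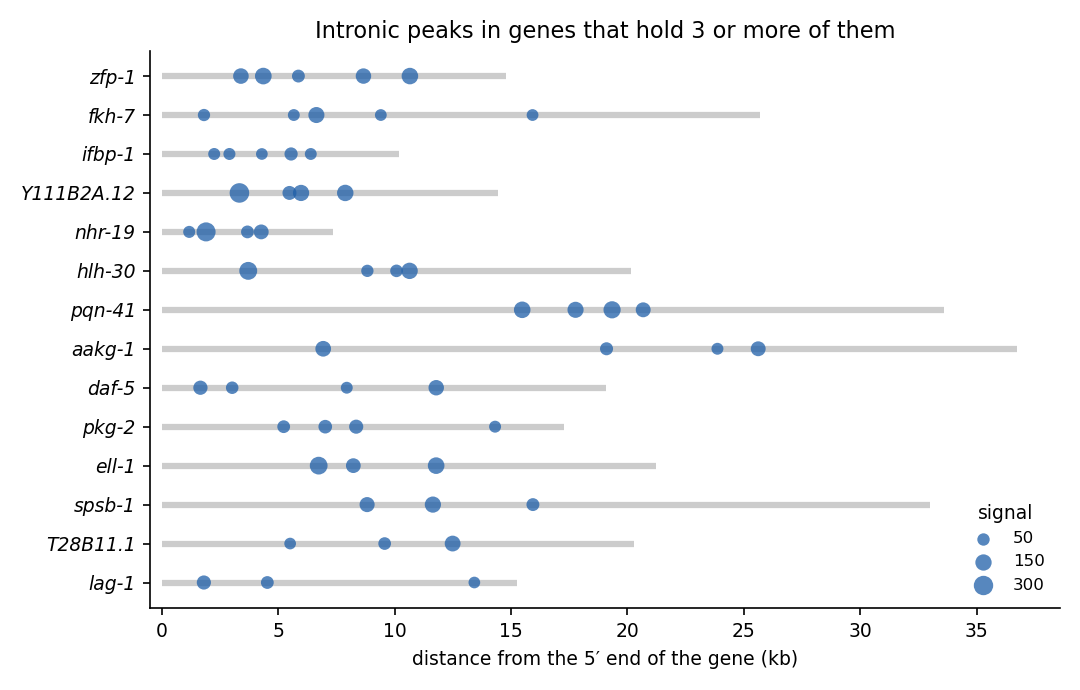
Position of intronic DPL-1 peaks along the 14 genes that hold 3 or more, as distance from the gene's 5′ end in kb (horizontal); grey bars span the gene and the area of a point grows with the square root of the IDR signal. The 4 peaks of pqn-41 lie together near the middle of its gene, while those of aakg-1 and lag-1 lie in 2 introns each.

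Many host genes also had a promoter peak. A promoter summit was found for 91 of 265 hosts (34.3%, 28.6 to 40.4%), against 15.3% of all autosomal protein-coding genes. Among genes with an eligible intron in an annotated intron of 1000 bp or more, the shares were 31.2% of hosts and 18.1% of all such genes. Where a host had both, the promoter peak was the stronger in 65 of 91, with a median ratio of promoter to strongest intronic signal of 2.13. At ifbp-1 the promoter had 204 against 64.9 in the intron, and at brc-1, the BRCA1 gene, 804 against 95.8. At Y111B2A.12 the intron was the higher, with 311 in the intron against 169 at the promoter. No promoter summit was found for zfp-1, fkh-7, daf-5 or aakg-1.

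Transcription factor and signalling genes were among the hosts. Of 162 autosomal genes on a list of developmental transcription factors, 18 held an intronic peak (11.1%, 6.72 to 16.99%), and of 144 signalling receptors, kinases and GTPase regulators 15 did (10.4%, 5.95 to 16.6%), beside 1.54% of all autosomal protein-coding genes. Genes of these lists often have long introns. Among genes with an intron of 1000 bp or more the shares were 17.7% (17 of 96) and 16.7% (14 of 84), beside 5.95% of all 3613 such genes. Within the factor list the highest signals were at klf-1, a Krüppel-like factor (230), hlh-30 (218) and skn-1, the worm Nrf factor of stress responses (218 and 161). That list is not complete: the nuclear receptor gene nhr-19 (279) was not among its hosts. Within the signalling list the highest signals were at kin-4 (233), at let-363, the TOR kinase gene (169), and at daf-2, the insulin receptor gene (126 and 42.1). At klf-1 the signal was 200 in replicate 1 and 23.8 in replicate 2. At let-363 it was 147 in replicate 1 and 23.9 in replicate 2. Both had matches in both replicates, and the weaker daf-2 peak had one in replicate 1 only.

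Lists of neuronal, cell cycle and intestinal genes held hosts in shares whose intervals included the 1.54% of all autosomal protein-coding genes. Of 128 ion channel and transmitter receptor genes 0 held an intronic peak (exact interval up to 2.84%), and 0 of the 70 with an intron of 1000 bp or more did (up to 5.13%), beside 5.95% of all such genes. Among 125 axon guidance, adhesion and synapse genes there were 3 hosts (2.40%): unc-119, mod-5, the serotonin transporter gene (147), and hmr-1, the cadherin gene (49.8). Every 36-base stretch of the mod-5 window occurred elsewhere in the genome, so its reads could come from more than one place. Of 92 replication, mitosis and repair genes, 69 had a promoter summit and 2, brc-1 (95.8 and 81.5) and cdk-2 (68.9), an intronic peak (2.17%). Repeated 36-base stretches made up 50% and 51.5% of the brc-1 windows and 45.5% of the cdk-2 window, so the same doubt applies to them. Of 72 DREAM and chromatin genes 39 (54.2%) had a promoter summit and 1 (1.39%) an intronic peak. Of 66 intestinal genes 1 (1.52%), fat-3, a fatty acid desaturase gene, held an intronic peak (85.3 in replicate 1, no match in replicate 2). The muscle and cytoskeleton list had 5 hosts of 96 (5.21%, 1.71 to 11.7%), an interval above the 1.54%. Among its 52 genes with an intron of 1000 bp or more the share was 7.69% (2.14 to 18.5%), beside 5.95% of all such genes. Its hosts were led by vab-10, the spectraplakin gene (157), klc-2, a kinesin light chain gene (48.2), and dys-1, the dystrophin gene (44.9). The epidermis and cuticle list had 3 of 64 (4.69%, 0.977 to 13.1%): vab-10, mup-4, of epidermal attachment (44.4), and nhr-23, of molting (41.5).

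An E2F string lay within 50 bp of the summit in 32 intronic peaks (9.44%, 6.55 to 13.1%). It lay in 2.38% of 240249 tiles of the same length over eligible intron, and in 2.36% and 2.06% of windows 500 bp to either side of the same summits. Over all IDR peaks the share was 7.41%, which is inside the interval of the intronic share, and it was 7.94% for promoter peaks and 6.69% for intergenic peaks. The letters in reversed order, with the same base composition, were in 1.47% of intronic windows and 0.609% of tiles. By spelling, TTTCGCGC was in 3.83% of intronic windows and 0.511% of tiles, TTTCCCGC in 2.95% and 0.865%, TTTGGCGC in 2.06% and 0.459%, and TTTGCCGC in 0.885% and 0.634%. Of the 6993 E2F matches in eligible introns, 38 (0.543%) lay within 50 bp of an intronic peak. Among the 15 strongest peaks 5 held an E2F string (33.3%, 11.8 to 61.6%), and among the 124 weakest 8 (6.45%). Of those 5, the windows of F53F1.3, ari-1.4 and smg-3 shared a run of 22 bases. They are not independent cases, while the interval counts them as if they were. The other classes showed a fall too, between the same strongest and weakest parts of the IDR list. It was from 13.2% to 4.97% for all IDR peaks, 12.4% to 4.82% for promoter peaks and 19.5% to 3.91% for intergenic peaks. Windows of intronic peaks had a median GC content of 44.6%, against 32.7% for tiles and 34.7% and 33.7% for the side windows, and the part of GC content in these shares was not tested.

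The palindromic E-box CACGTG, bound by basic helix-loop-helix factors, was in 42 intronic windows (12.4%, 9.08 to 16.4%), against 5.98% of all IDR peaks, 4.32% of promoter peaks, 8.86% of intergenic peaks and 1.38% of tiles. Its letters in reversed order were in 3.83% of intronic windows and 0.832% of tiles. The E-box CAGCTG was in 3.83% of intronic windows, 3.52% of promoter windows and 1.39% of tiles. The repeat GAGAGAGA was in 37 intronic windows (10.9%, 7.80 to 14.7%), against 6.17% of all IDR peaks, 3.67% of promoter peaks, 13.1% of intergenic peaks and 0.575% of tiles. E2F and CACGTG strings were together in 1 intronic peak, and GAGAGAGA was with each of them in 2. At least 1 of the E2F, CACGTG and GAGAGAGA strings was in 106 intronic peaks (31.3%), and 233 held none. The same counts were not made over all IDR peaks or tiles, so they do not show whether these strings keep apart. The peaks with CACGTG had a median signal of 60.6 and 61.9% of them (26 of 42) were matched in replicate 2. These values were 69.5 and 81.2% (26 of 32) for peaks with an E2F string, and 64.9 and 73.0% (27 of 37) for those with GAGAGAGA. The counts are small, and whether the shares differ was not tested. The GC box GGGCGG was in 5.31% of intronic windows and 1.71% of tiles. Of the other strings, that of GATA factors, TGATAA, was in 7.37% of intronic windows and 8.40% of tiles, the AP-1-like TGANTCA in 2.06% of intronic windows and 2.11% of tiles, the homeodomain core TAATTA in 2.95% and 5.42%, and the CHR-like strings in 26.5% and 39.4%.

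**Figure D5:**
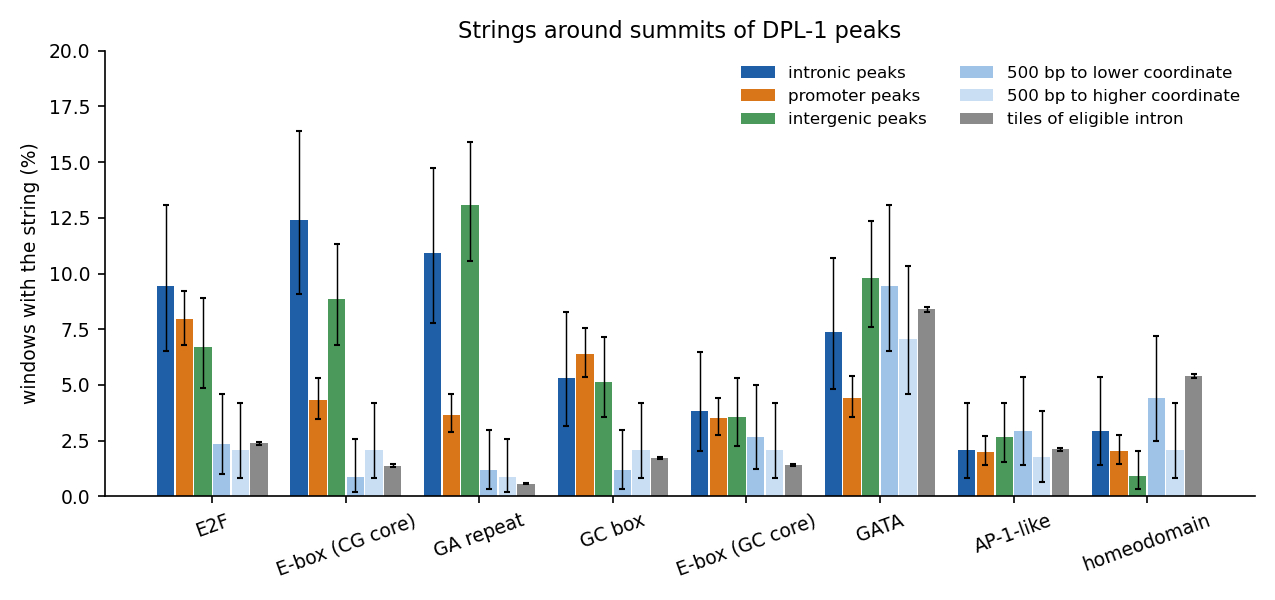
Share of windows, from 50 bp before to 50 bp after a summit, holding each string (%), with exact 95% binomial intervals, for windows at the summits of intronic, promoter and intergenic autosomal peaks, 500 bp to either side of intronic summits, and over tiles of eligible intron; the CHR-like string is not drawn. The CG-core E-box stood at 12.4% of intronic windows and 4.32% of promoter windows, and GATA and AP-1-like strings were as common in tiles as at intronic summits.

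Some strings were noticed only after the values and sequences were seen, so their shares describe these windows and support nothing. A CHR-like string at most 6 bp from the E2F string was found in 9 intronic windows (2.65%), against 1.49% of promoter windows and 0.534% of tiles. With the CHR-like string required on the T side of the E2F string it was 8. Of the 9, 5 were among the 10 strongest intronic peaks (F53F1.3, ari-1.4, set-18, Y75B8A.25 and smg-3), and the 9 had a median signal of 472. Bases masked as repeats in the reference sequence made up 16.8 to 89.1% of the 9 windows. The shares were 74.3% at F53F1.3, 56.4% at ari-1.4, 47.5% at set-18, 89.1% at Y75B8A.25 and 79.2% at smg-3. The part of repeats in these matches was not tested. The string ACACGGC was in 9 intronic windows (2.65%), against 2.52% of all IDR peaks, 2.83% of promoter peaks, 3.11% of intergenic peaks and 0.260% of tiles. It was in 5 of the 20 strongest intronic peaks. The windows of F53F1.3, ari-1.4 and smg-3 shared a run of 22 bases, which occurred at 10 places in the genome, 7 of them within 100 bp of an IDR summit. These 3 windows are therefore not independent cases. When the 15686 strings of 8 letters in intronic windows were ranked by their excess over tiles, AGACGCAG came first; strings of 6 and 7 letters were ranked too, and none of them is singled out here from that ranking. It was in 45 intronic windows (13.3%, 9.85 to 17.4%), against 11.0% of all IDR peaks, 10.8% of promoter peaks, 16.0% of intergenic peaks and 0.599% of tiles.

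Intronic peaks also lay in genes carried by the transgene. The unc-119 intron held 2 peaks. The stronger had a signal of 162 in replicate 1, 34.0 in replicate 2 and 158 in the IDR list, and the weaker had 40.4 in replicate 1 and no match in replicate 2. The native gene and the wild-type copy in the transgene cannot be told apart in these lists. The dpl-1 member lay in a 46 bp stretch of intron where dpl-1 overlaps T23G7.2, with a signal of 31.6 in replicate 1 and no match in replicate 2. The dpl-1 promoter had an IDR signal of 340. None of the intronic peaks lay in efl-1, lin-35 or ges-1.

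At the limits of the rule, the member closest to a promoter window lay 15 bp outside it, in K04G2.7, and 9 members were within 50 bp of a window, while 14 summits lay inside a window, in an intron, within 50 bp of its edge. The weakest member, in C28H8.2, had 39.5, as did the strongest pooled intronic peak outside the IDR list, in ras-1. The rule left out 56 autosomal intronic summits near small RNA genes, 33 on the X chromosome and 19 in exons of gene types that do not code for protein, 13 of them ncRNA genes. In 311 of the intronic peaks (91.7%) every 36-base stretch of the window of 50 bp to each side of the summit occurred once in the genome, and in 5 over 50% of the stretches occurred elsewhere. The share was 48.5% for the strongest ell-1 peak and 31.8% for the weaker unc-119 peak.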

How the data were processed

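The authors deposited narrowPeak lists on builds ce10 and ce11. The ce11 lists were used: an IDR list, a pooled list and a list for each replicate, made from alignments and a control, per the labels' file descriptions. No source used here gives the aligner, peak caller or read totals, so the depth behind each peak is unknown. Each peak's signal, as the authors deposited it, has no stated scale, and served to describe and rank peaks within a list. The summit is the deposited start plus the deposited offset in bp. Peak ends fitted the chromosome lengths of WBcel235, whose Ensembl release 115 annotation and RefSeq sequence were used.

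No test was made. Shares have exact Clopper-Pearson 95% intervals. Genes named are hosts of the 20 strongest members, hosts of 3 or more, up to 3 of the strongest members per gene list, and dpl-1, efl-1, lin-35, ges-1 and unc-119. A few more were chosen after their values were seen: pgph-2, larp-1, cox-6B, lin-1, F28F8.7, K04G2.7, C28H8.2, ras-1, Y43F8B.2 and nova-1. Members, lists (1229 entries, 24 unmatched) and strings were chosen with earlier results of these data known. Position classes, matching, intron order and string search were tested on simulated data. Code ran in Python 3.11.15 with pandas 2.3.3, scipy 1.17.1 and numpy 2.4.6, and plots in matplotlib 3.10.9.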

Additional observations from a re-analysis of the deposited data

How the results depend on the processing

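Of 80 alternative values, 57 stayed within the interval of the value reported, or within 1.5 times it for counts, and 23 did not. The 104 members among the stronger 1863 IDR peaks lay in 87 hosts, with a median signal of 147, matched 100% in replicate 1 and 95.2% in replicate 2. Matching within 50 bp gave 94.7% for replicate 1 and 59.6% for replicate 2, within 200 bp 100% for replicate 1 and 87.0% for replicate 2, and with only the 3726 strongest replicate peaks 92.3% for replicate 1 and 54.0% for replicate 2. The members rebuilt from 1 replicate's 3726 strongest peaks had median signals of 9.95 (without replicate 1) and 54.5 (without replicate 2), on different scales. The first-intron share was 45.6% with peaks near small RNA genes kept, 35.7% with the longest transcript alone, and 42.2 to 51.5% without either replicate. The median intron length was 2369 bp with those peaks kept and 2194 to 3162 bp without either replicate. The E2F share was 13.6% within 100 bp of the summit, 3.24% within 25 bp and 16.2% for strings with 1 T fewer, and, chosen after seeing the data, 1.47% for reversed strings and 2.65% for strings paired with a CHR-like string. Some of these moves follow by construction. Narrower or wider windows, looser strings and paired strings hold fewer or more matches. The stronger 1863 IDR peaks hold fewer members and hosts, with a higher median signal. Matching within 50 bp or to the 3726 strongest replicate peaks can find no more matches, and matching within 200 bp no fewer. The cause of the other moves was not tested. Among members with no repeated 36-base stretch the E2F share was 9.97%. No paired analysis was possible because the series has 1 group. Depth was not given, so a peak missing from replicate 2 cannot be told from one under its detection limit.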
